A study of Mus musculus with 30 samples.

Results

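The 39 genes described here encode the machinery of DNA replication and of mitosis. They were chosen by function, with earlier results of these data known, and all 39 were found among the 14118 genes of the count matrix. They fall into 16 S phase genes and 23 mitotic genes. The S phase genes comprise the G1/S drivers Ccne1, Ccne2 and E2f1, the origin licensing and firing factors Cdc6, Cdt1 and Gins2, the helicase subunits Mcm2 to Mcm7, and the clamp and nucleotide supply genes Pcna, Rrm2, Tyms and Tk1. The mitotic genes comprise Cdk1 and its cyclins (Ccna2, Ccnb1, Ccnb2), the kinases and chromosomal passenger subunits Aurka, Aurkb, Plk1 and Birc5, and the checkpoint and anaphase genes Bub1, Bub1b, Cdc20 and Ube2c. They further comprise the kinesins and spindle proteins Kif11, Kif20a, Kif23, Kif2c, Tpx2 and Nusap1, and the centromere and chromosome genes Cenpa, Cenpe, Cenpf, Top2a and Mki67.

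As background, a cell that leaves quiescence activates cyclin-dependent kinases, which release E2F transcription factors from the pocket proteins and so switch on the S phase genes. Mitotic genes follow later, and in quiescent cells the DREAM complex holds many of them down through a promoter element called the cell cycle gene homology region (CHR). Because both sets of transcripts are made mainly in cycling cells, they are widely read as a measure of proliferation in tumour stroma, where macrophages, endothelial cells and fibroblasts can all divide. In bulk RNA, more cycling cells and more of these transcripts in each cell cannot be told apart.

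RNA was measured in 30 libraries from 6 populations, each sorted out of the same 5 mammary adenocarcinomas, 1 tumour from each of 5 mice. All mice carried the FVB/N-Tg(MMTVPyVT)634Mul/J transgene, in which the mouse mammary tumour virus promoter drives the polyoma middle T oncogene in mammary epithelium. All tumours had a volume of 750 mm3, so neither normal tissue nor another tumour stage stands beside them. Tumours were digested with collagenase and DNase, and the RNA of the sorted cells was amplified with a low-input kit before library preparation. The stromal cells carried no engineered change apart from the transgene of the strain, and the age of the mice is not given in the sources used here. Cancer-associated fibroblasts (CAF) were CD45- CD31- CD90+ cells, divided into CD34- CAF1 and CD34+ CAF2. Endothelial cells were CD45- CD31+. Macrophages were CD45+ F4/80+ and came as CD206hi MHCIIlo, CD206neg MHCIIlo and CD206pos MHCIIhi cells, called CD206hi, CD206neg and CD206pos here. The tumours bear the numbers 5, 6, 8, 10 and 11, and values of a population are given in that order.

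Library totals ran from 6292411 to 11957076 counts, so that 3 counts, the upper limit that a count of 0 allows, correspond to 0.251 to 0.477 CPM (counts relative to the library total, on the usual scale), covering counting error only. Levels are CPM scaled by the trimmed mean of M values (TMM), and their SD is over the 5 tumours. The limit above is in plain CPM, and TMM scaling shifts it in each library. The markers of each lineage were in place: summed endothelial markers lay at 1720 to 4463 CPM in endothelial libraries and at no more than 99.7 elsewhere, and summed macrophage markers at 16304 to 88725 in macrophages and at no more than 446 elsewhere. Summed fibroblast markers lay at 25786 to 241949 CPM in CAF and at no more than 869 elsewhere. The genes of CD34, CD206 and MHC class II, which divide the gates within a lineage, were not examined. RNA of the cancer epithelium was present too. The 12 luminal epithelial markers, which include Epcam and Krt8, summed to 231 to 1776 CPM in CAF1, 9.82 to 501 in CAF2, 157 to 2050 in endothelial cells and 26.9 to 1040 in the 3 macrophage populations. The 5 myoepithelial markers, which include Krt14 and Krt5, summed to 82.4 to 2758 CPM in CAF1, 43.4 to 957 in endothelial cells and no more than 25.2 in the other 4 populations. Within the CAF2 libraries, Krt8 and Trp63 were at 0 in tumour 5, Krt5 and Trp63 at 0 in tumour 10. The 6 pericyte markers, which include Rgs5 and Notch3, summed to 502 to 1562 CPM in CAF1, 81.7 to 110.2 in CAF2, 81.7 to 1030.5 in endothelial cells and no more than 19.4 in macrophages. Of the 7 T and NK cell markers 2 were in the matrix, and these were at 0 in all CAF2 libraries. For 2 CD206neg libraries, those of tumours 6 and 8, the matrix column carries the name of high MHC class II and the sample label says low. The labels were followed. Without these libraries the CD206neg sums became 757 ± 17.8 CPM (SD, n = 3) for the S phase genes and 686 ± 82.5 for the mitotic genes, still the highest means of the 6 populations in TMM-scaled CPM, and of the called differences of the 39 genes between populations only those of Mcm3, Rrm2 and Aurka in CD206pos against CD206neg (adjusted p = 0.0935, 0.0707 and 0.057) and Cenpa in endothelial cells against macrophages (adjusted p = 0.0661) no longer passed.

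The promoters of the S phase and the mitotic genes differ in sequence. RefSeq promoter windows (GRCm38.p6, 250 bases before to 50 after the annotated start) were matched for 32 of the 39 genes, Mcm7 with 2 windows. The CHR word TTTGAA, searched on both strands, stood in 14 of 19 mitotic windows (73.68%) and in 1 of 14 S phase windows (7.14%), that of Mcm2, against 17.89% of all 32851 windows. The E2F words TTTGGCGC, TTTGCCGC, TTTCGCGC and TTTCCCGC, again on both strands, stood in 6 of 14 S phase windows (42.86%) and 1 of 19 mitotic windows (5.26%), that of Cdk1, against 2.26% of all windows. The CCAAT word, which can share an end base with the CHR word, was searched in the same way and stood in 84.21% of mitotic, 57.14% of S phase and 37.41% of all windows. Other mitotic genes held the CHR word in 25 of 34 windows (73.53%), and other replication genes held an E2F word in 12 of 36 (33.33%). A match describes letters only, and no factor binding was measured. The stretches below run 5′ to 3′ from 180 bases before to 30 after the start and are shown because they carry these words near the start of genes that differed between populations or tumours. In the first 3, of Top2a (chr11:99024160-99024369, minus strand), Ccnb2 (chr9:70421525-70421734, minus strand) and Cdc20 (chr4:118437314-118437523, minus strand), capitals mark the CHR word.
Top2a: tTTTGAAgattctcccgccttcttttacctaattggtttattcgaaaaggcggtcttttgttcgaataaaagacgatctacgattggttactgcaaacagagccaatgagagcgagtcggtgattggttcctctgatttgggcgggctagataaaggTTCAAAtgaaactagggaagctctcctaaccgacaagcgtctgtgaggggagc
Ccnb2: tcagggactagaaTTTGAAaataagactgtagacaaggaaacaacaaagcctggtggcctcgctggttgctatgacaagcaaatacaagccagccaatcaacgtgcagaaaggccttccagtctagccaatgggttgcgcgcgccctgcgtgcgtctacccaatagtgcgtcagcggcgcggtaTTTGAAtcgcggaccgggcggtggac
Cdc20: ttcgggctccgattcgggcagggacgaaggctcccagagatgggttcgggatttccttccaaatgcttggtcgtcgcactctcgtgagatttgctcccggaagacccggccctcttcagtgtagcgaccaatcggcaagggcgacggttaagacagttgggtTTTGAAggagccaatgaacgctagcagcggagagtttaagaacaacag
In the next 3, of Mcm6 (chr1:128359676-128359885, minus strand), Mcm7 (chr5:138171854-138172063, minus strand) and Cdc6 (chr11:98907971-98908180, plus strand), capitals mark the E2F words, which overlap each other at 1 place in Mcm6.
Mcm6: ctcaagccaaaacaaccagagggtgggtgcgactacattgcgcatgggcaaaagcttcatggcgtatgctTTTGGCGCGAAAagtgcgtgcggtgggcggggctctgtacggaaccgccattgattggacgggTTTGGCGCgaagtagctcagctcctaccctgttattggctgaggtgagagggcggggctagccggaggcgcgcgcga
Mcm7: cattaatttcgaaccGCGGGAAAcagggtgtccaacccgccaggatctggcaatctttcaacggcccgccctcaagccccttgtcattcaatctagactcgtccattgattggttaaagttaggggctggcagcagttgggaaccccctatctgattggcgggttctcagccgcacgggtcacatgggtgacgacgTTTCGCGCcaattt
Cdc6: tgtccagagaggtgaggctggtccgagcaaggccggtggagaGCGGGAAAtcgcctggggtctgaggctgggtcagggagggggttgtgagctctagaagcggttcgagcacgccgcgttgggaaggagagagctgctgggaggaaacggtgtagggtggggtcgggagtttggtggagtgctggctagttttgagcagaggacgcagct
Top2a encodes the topoisomerase that untangles chromosomes, Ccnb2 a partner of Cdk1, Cdc20 the activator of the anaphase-promoting complex, Mcm6 and Mcm7 helicase subunits and Cdc6 a loader of that helicase. The Ccnb2 stretch held the CHR word at 2 places, 1 of them just after the start.

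In TMM-scaled CPM the S phase genes together gave the most RNA in CD206neg macrophages and the least in CAF2. Their summed level was 752, 548, 822, 777 and 743 CPM in CD206neg (mean 728 ± 106, SD, n = 5). In CD206hi it was 516, 427, 705, 794 and 387 CPM (566 ± 177), and in CD206pos 364, 379, 643, 440 and 431 CPM (452 ± 112). The macrophage populations overlapped one another, and the CD206hi libraries were the most spread. Endothelial libraries stood close together at 401, 368, 458, 417 and 437 CPM (416 ± 34.4). CAF1 had 278, 233, 336, 240 and 194 CPM (256 ± 53.6) and CAF2 178, 172, 274, 257 and 215 CPM (219 ± 45.6). All endothelial libraries lay above all CAF libraries, and the CAF populations overlapped. The order of endothelial cells and macrophages depends on the scaling: in plain CPM the endothelial mean became 605 and the CD206neg mean 603, while CAF1 and CAF2 stayed the lowest at 280 and 243. The TMM factors ran from 1.27 to 1.67 in endothelial libraries and from 0.547 to 1.21 in macrophages.

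The mitotic genes gave a similar order with more spread between tumours. Their summed level was 592, 424, 1036, 718 and 747 CPM in CD206neg (mean 704 ± 225, SD, n = 5), 393, 502, 746, 727 and 338 in CD206hi (541 ± 188) and 202, 344, 655, 517 and 296 in CD206pos (403 ± 181). Endothelial libraries had 456, 427, 724, 602 and 594 CPM (561 ± 121). CAF1 had 368, 309, 554, 287 and 154 CPM (335 ± 146) and CAF2 170, 160, 456, 258 and 271 CPM (263 ± 119). In every population the library of tumour 8 was the highest, and neighbouring populations overlapped. In plain CPM the endothelial mean of 823 became the highest of the 6, above 585 in CD206neg. The mitotic sum divided by the S phase sum needs no scaling between libraries. It averaged 1.34 ± 0.189 in endothelial cells, 1.26 ± 0.309 in CAF1 and 1.16 in CAF2, and 0.957 in CD206hi, 0.951 in CD206neg and 0.868 in CD206pos. Single libraries ran from 0.554 to 1.67, and both endothelial and CAF libraries overlapped macrophage libraries in this ratio.

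**Figure D1:**
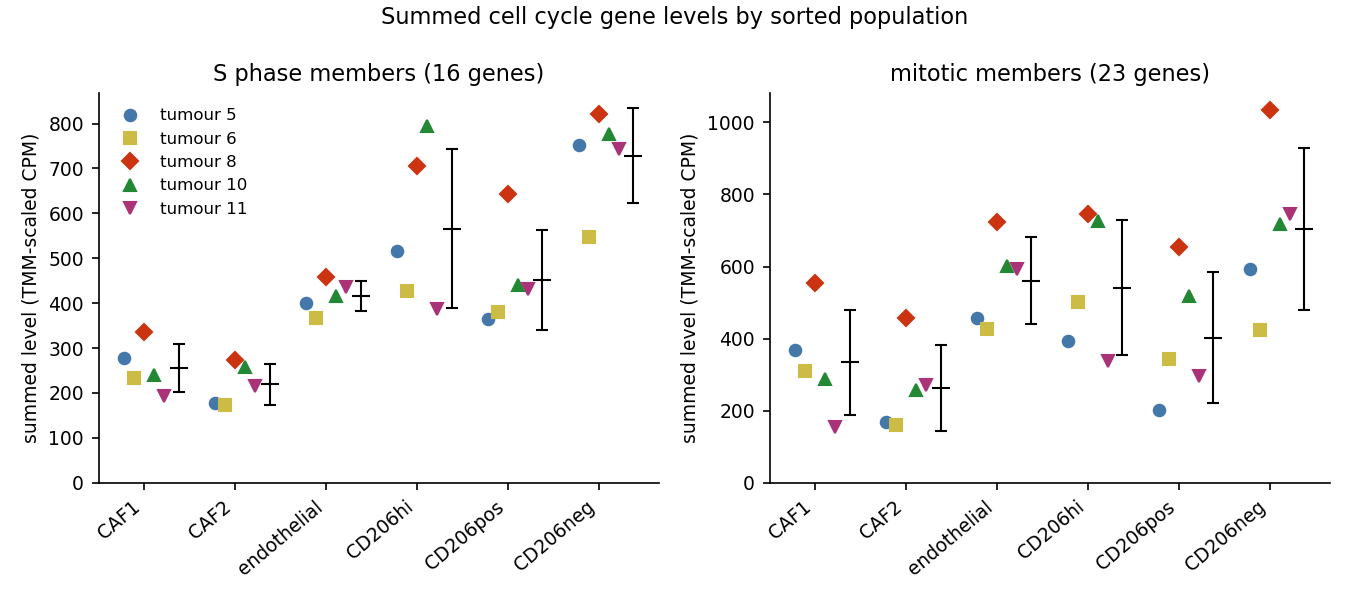
Summed TMM-scaled CPM (vertical axes) of the 16 S phase genes and the 23 mitotic genes in the 6 populations. Each symbol is 1 library, with its shape giving the tumour, and the bars give mean and SD over 5 tumours. CD206neg macrophages have the highest means, 728 and 704 CPM, and CAF2 the lowest, 219 and 263 CPM.

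Most single genes had the same highest and lowest populations. By mean TMM-scaled level, CD206neg was the highest population for 11 of 16 S phase and 18 of 23 mitotic genes, and CAF2 the lowest for 12 of 16 and 16 of 23. The thymidylate synthase gene Tyms and the mitotic genes Cdk1, Plk1, Cdc20 and Cenpf were highest in endothelial cells. E2f1, the transcription factor of the G1/S switch, was highest in CD206pos and lowest in endothelial cells. Ccne1, a cyclin of S phase entry, was highest in CAF1, and Ccne2, Cdc6 and Kif20a were highest in CD206hi. Besides E2f1, the genes that were not lowest in CAF2 were Gins2, Mcm4, Birc5 and Nusap1, lowest in CAF1, and Ccne2, Ccnb2, Plk1, Cdc20, Kif20a and Tpx2, lowest in CD206pos. Per kilobase of exon, so that genes can be compared, Pcna gave the most RNA (a mean of 87.6 CPM per kb over the 30 libraries), followed by Cenpa with 31.2, Ccnb2 with 21.8 and Tk1 with 16.8. Ccne2 with 0.524 and Cdc6 with 0.818 CPM per kb were the lowest. The median S phase gene had 13.1 CPM per kb in CD206neg, 6.02 in endothelial cells and 3.07 in CAF2, and the median mitotic gene 6.86, 5.35 and 2.21.

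**Figure D2:**
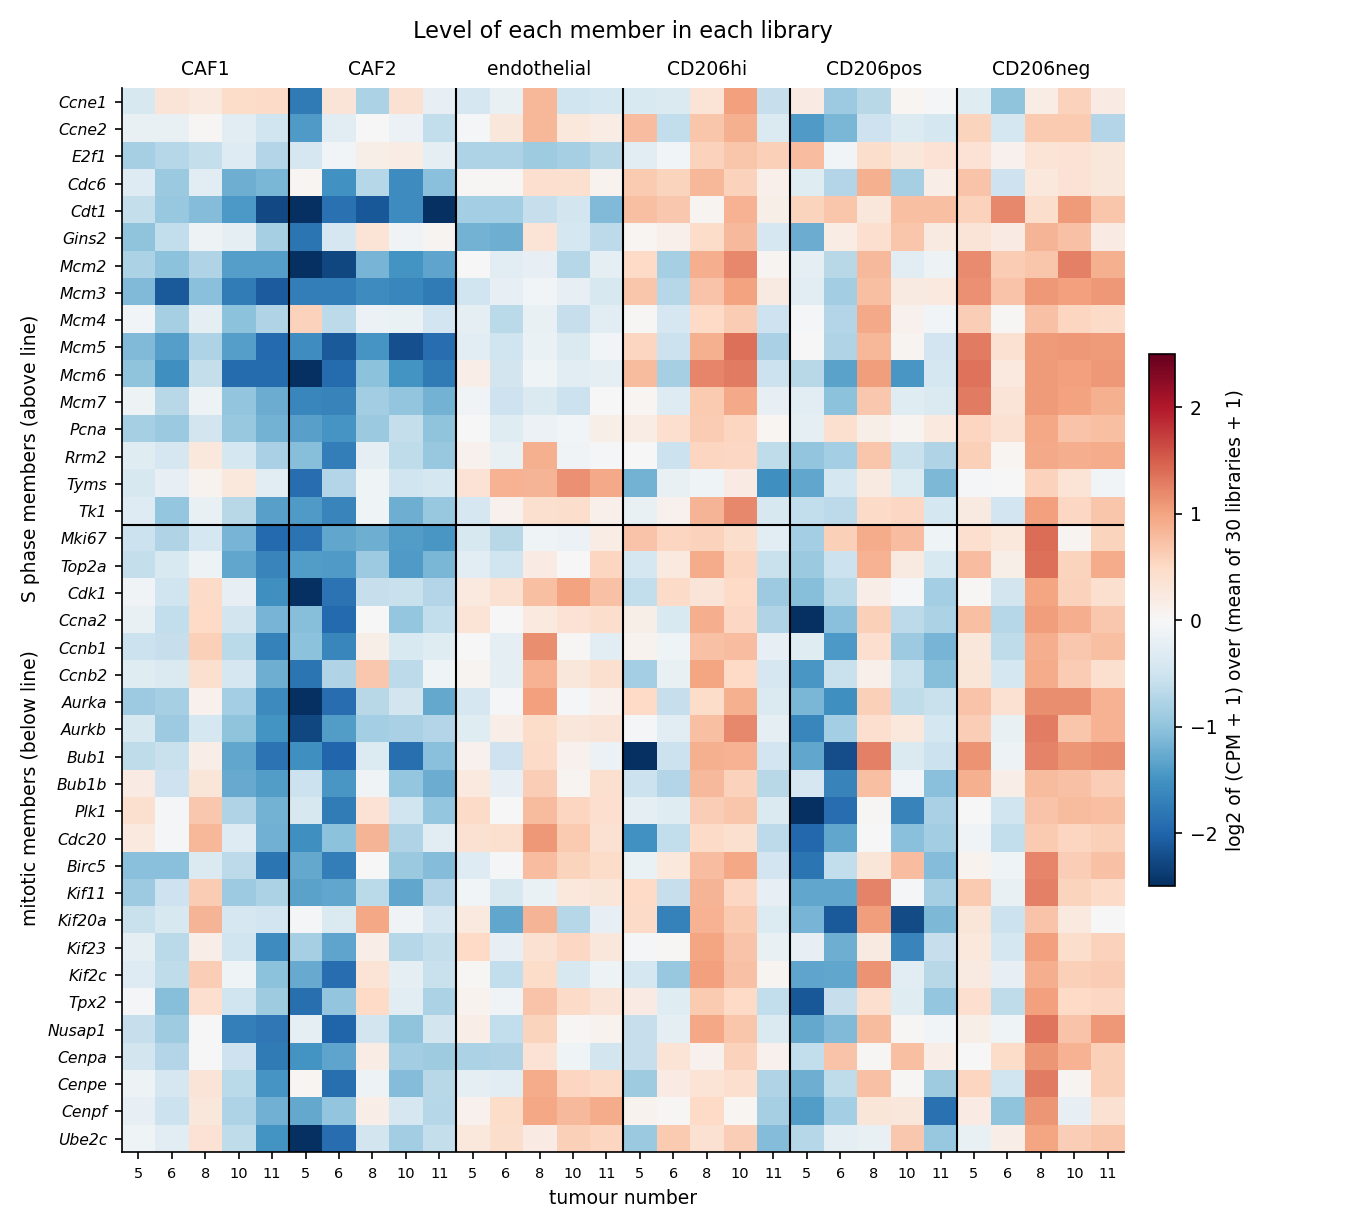
Level of each of the 39 genes (rows) in each of the 30 libraries (columns, ordered by population and tumour), as log2 of CPM + 1 over the gene's mean, on a colour scale from -2.5 to 2.5. CD206neg columns are above the mean for most rows and CAF2 columns below it, and the tumour 8 column stands out in the mitotic rows of several populations.

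Replication genes were lower in fibroblasts than in macrophages. Taking CAF1 and CAF2 together against the mean of the 3 macrophage populations, the quasi-likelihood test of edgeR (p adjusted over all genes by Benjamini and Hochberg) found 13 of 16 S phase genes lower and none higher, while 30.8% of all genes tested were lower and 37.3% higher. The median log2 difference of the 16 was -1.24 and that of all genes 0.10. All 6 Mcm subunits, which form the replicative helicase, were lower, as were all 3 licensing and firing factors. Ccne1, Ccne2 and Tyms did not pass.

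Cdt1, which loads the helicase onto origins, had the largest difference. It was at 11, 8.41, 7.59, 5.71 and 2.83 CPM in CAF1, and at 0.161, 4.0, 3.19, 5.14 and 1.3 in CAF2. In macrophages it was at 29.7, 28.1, 18.1, 32.2 and 19.0 (CD206hi), 26.0, 40.7, 23.6, 37.1 and 28.5 (CD206neg) and 25.7, 28.3, 21.2, 29.6 and 29.8 (CD206pos). No CAF library reached any macrophage library, and the log2 difference was -2.63 ± 0.27 (SE, adjusted p = 8.89e-10). Such separation, with all libraries of the lower side below the other, held for 3 of the 16 genes (Cdt1, Mcm3 and Pcna) and for 9.62% of the matrix. Pcna, the sliding clamp of the DNA polymerases (chromosome 2, 132249286 to 132253180), was at 74.8, 69.5, 96.1, 68.6 and 58.4 CPM in CAF1 and at 51.6, 47.3, 69.0, 88.1 and 65.3 in CAF2. In macrophages Pcna was at 151, 178, 207, 194 and 137 (CD206hi), 193, 173, 260, 218 and 224 (CD206neg) and 112, 177, 147, 139 and 158 (CD206pos). Its difference of -1.35 ± 0.12 (adjusted p = 2.2e-11) was smaller than that of Cdt1 and more even across tumours.

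Mcm3 was at 12.1, 5.61, 12.6, 7.36 and 5.67 CPM in CAF1 and at 7.57, 7.52, 8.48, 8.13 and 7.31 in CAF2. Macrophage values of Mcm3 were 44.5, 16.2, 45.2, 55.8 and 32.2 (CD206hi), 61.3, 45.0, 58.7, 56.2 and 58.7 (CD206neg) and 22.6, 14.4, 46.5, 32.0 and 32.4 (CD206pos). Its log2 difference was -2.27 ± 0.19 (adjusted p = 9.1e-12), lower in 5 of 5 tumours. Mcm6 was at 17.6, 12, 23.7, 8.90 and 8.86 CPM in CAF1 and at 5.55, 8.85, 17.4, 12.2 and 9.91 in CAF2. In macrophages Mcm6 was at 63.3, 20.0, 86.1, 90.6 and 24.7 (CD206hi), 95.3, 43.6, 77.1, 75.3 and 78.2 (CD206neg) and 22.0, 13.7, 75.8, 12.6 and 26.4 (CD206pos). The CD206pos libraries of tumours 5, 6 and 10 and the CD206hi library of tumour 6 fell within the CAF range, and the difference was -2.02 ± 0.29 (adjusted p = 5.29e-07). Mcm4 was at 29.6, 16.9, 26.1, 14.6 and 18.1 CPM in CAF1, 46.4, 19.3, 28.0, 27.5 and 21.9 in CAF2, 31.4, 22.8, 44.3, 48.8 and 21.4 in CD206hi, 47.6, 31.7, 52.0, 45.6 and 43.2 in CD206neg and 30.3, 18.3, 60.9, 33.2 and 29.6 in CD206pos. These values overlapped, and the Mcm4 difference of -0.60 ± 0.18 (adjusted p = 0.00468) was the smallest among the Mcm genes.

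Of the mitotic genes 13 of 23 were lower in fibroblasts and none higher, with a median log2 difference of -0.69. With tumour as a replicate block 17 were lower, against 32.2% of all genes. Mki67, the proliferation antigen that coats mitotic chromosomes (chromosome 7, 135689784 to 135716450), was at 24.5, 21.1, 26.3, 15.5 and 8.68 CPM in CAF1 and at 9.34, 13.9, 14.9, 13.1 and 12.4 in CAF2. In macrophages Mki67 was at 59.7, 53.0, 54.3, 48.9 and 29.5 (CD206hi), 48.5, 43.6, 96.3, 37.9 and 53.1 (CD206neg) and 19.4, 55.2, 69.3, 61.9 and 33.2 (CD206pos). Only the CD206pos library of tumour 5 fell within the CAF range, and the difference was -1.70 ± 0.21 (adjusted p = 1.92e-08). Cenpa, the histone variant that marks centromeres, was at 36.8, 30.6, 51.6, 35.7 and 14.3 CPM in CAF1 and at 17.5, 19.9, 58.7, 27.7 and 27.1 in CAF2. In macrophages Cenpa was at 33.9, 65.2, 55.1, 76.7 and 55.1 (CD206hi), 51.7, 70.4, 112, 94.4 and 78.2 (CD206neg) and 33.1, 85.0, 52.3, 86.9 and 57.6 (CD206pos), a difference of -1.05 ± 0.22 (adjusted p = 0.000108). The groups overlapped for Cenpa, with tumour 8 the highest CAF library of each gate.

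Birc5, the passenger subunit survivin, was at 18.4, 18.6, 30.4, 24.6 and 10.3 CPM in CAF1 and at 15.5, 11.2, 38.7, 20.3 and 18.0 in CAF2. In macrophages Birc5 was at 35.1, 47.5, 67.7, 77.5 and 27.8 (CD206hi), 41.6, 36.3, 92.9, 60.2 and 66.0 (CD206neg) and 10.3, 25.2, 48.5, 67.9 and 17.9 (CD206pos), a difference of -1.18 ± 0.27 (adjusted p = 0.00028). The lowest CD206pos libraries lay at the bottom of the CAF range for Birc5. Cdk1, the kinase that drives entry into mitosis, was at 35.5, 26.2, 53.0, 32.5 and 12.4 CPM in CAF1 and at 4.27, 9.70, 24.8, 25.1 and 22.3 in CAF2. In macrophages Cdk1 was at 24.2, 52.7, 47.1, 53.7 and 19.5 (CD206hi), 38.3, 26.9, 75.2, 56.5 and 50.03 (CD206neg) and 17.5, 23.1, 42.4, 36.1 and 20.4 (CD206pos), a difference of -0.69 ± 0.26 (adjusted p = 0.0191). CAF1 libraries overlapped the macrophages for Cdk1, while the CAF2 library of tumour 5 was the lowest of all. No mitotic gene was higher in fibroblasts, and the log2 difference was 0.15 ± 0.28 for Cdc20 (adjusted p = 0.654) and -0.31 ± 0.25 for Ccnb2 (adjusted p = 0.284).

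Other genes of the same pathways gave counts in the same direction. Of 37 other replication genes 25 were lower in fibroblasts and 1, the dUTPase gene Dut, higher (35.9 against 23.5 CPM, adjusted p = 0.00211). The replisome subunit Gins1 (1.79 against 10.8 CPM), the Cdt1 inhibitor Gmnn (5.13 against 19.3) and the flap endonuclease Fen1 (8.84 against 31.8) had the largest decreases. Of 40 other mitotic genes 23 were lower and 1, Cks1b, higher (65.5 against 44.4 CPM, adjusted p = 0.0135). Espl1, the separase that cleaves cohesin, was at 2.5 CPM in fibroblasts and 19.6 in macrophages. Of the 11 pocket protein and repressor genes 7 were lower and 1 higher, and Rb1, the retinoblastoma protein itself, was at 9.52 CPM in fibroblasts and 36.1 in macrophages (adjusted p = 1.09e-10). None of the 12 luminal epithelial markers was called in this comparison by edgeR or DESeq2, and 1 had an unadjusted p under 0.05, while 5 of 5 myoepithelial and 6 of 6 pericyte markers were higher in fibroblasts. The part of epithelial and pericyte RNA in the CAF values was not tested.

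**Figure D3:**
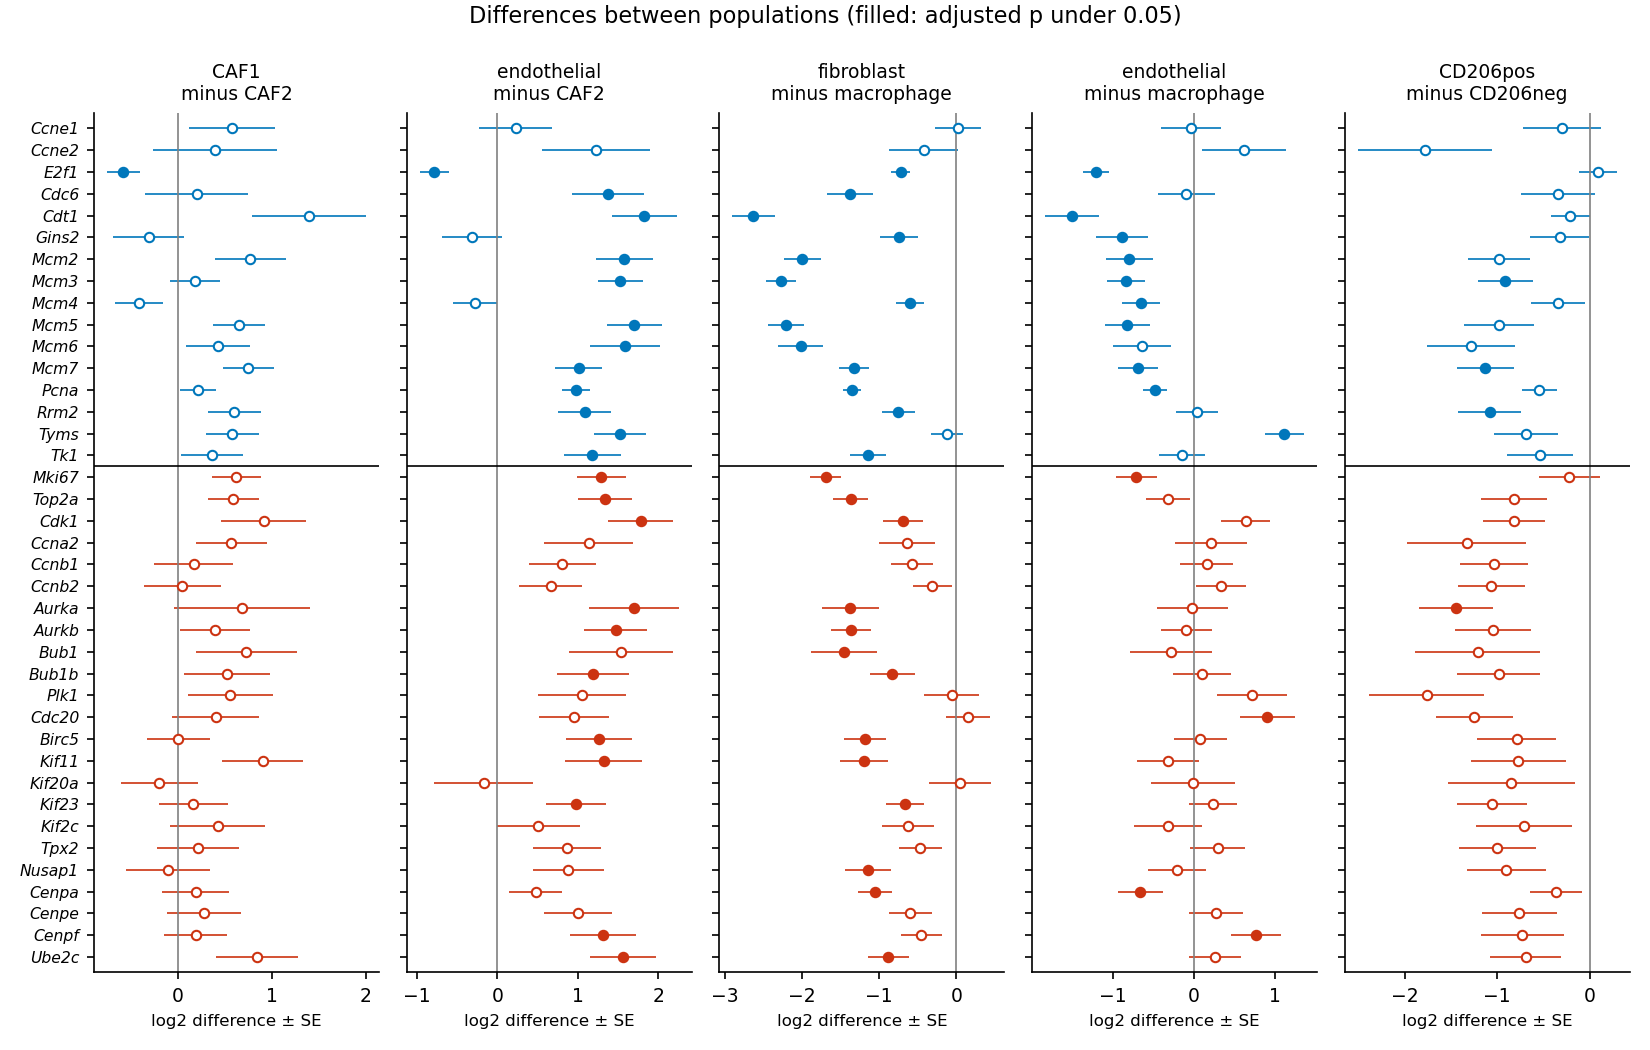
Log2 difference with its SE (horizontal axes) of the 39 genes (rows) in 5 comparisons, with filled points for adjusted p under 0.05. Most S phase genes lie left of 0 for fibroblasts against macrophages and right of 0 for endothelial cells against CAF2, and nearly all points lie left of 0 for CD206pos against CD206neg, few of them filled.

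In the TMM-scaled fit more S phase than mitotic genes passed between endothelial cells and macrophages. Of the S phase genes 9 were lower in endothelial cells and 1 higher, against 24.7% and 36.5% of all genes, with a median log2 difference of -0.64 beside 0.17 for all genes. Of the mitotic genes 2 were lower and 2 higher (3 higher with tumour as a replicate block, beside 38.7% of all genes), with a median of 0.11. The counts of calls were the same with relative log expression scaling. In plain CPM both endothelial sums rise above the macrophage levels, and it is the mitotic sums, 823 against 585 in CD206neg, that lie apart rather than the S phase sums, 605 against 603. Whether the lists differed from each other was not tested. The TMM factor of every endothelial library exceeded that of every macrophage library. The single-gene differences between these lineages given next therefore hold for scaled libraries. They were not fitted in plain CPM, where the direction of the smaller ones may differ.

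E2f1 was at 11.6, 11.7, 10.7, 11.1 and 12.3 CPM in endothelial cells, the lowest mean of the 6 populations. In macrophages it was at 17.1, 19.6, 31.0, 33.8 and 31.7 (CD206hi), 26.9, 22.3, 26.5, 26.8 and 25.4 (CD206neg) and 36.0, 19.6, 28.1, 25.3 and 26.7 (CD206pos). No library overlapped, as held for 2 of the 16 genes (E2f1 and Cdt1) and 11.1% of the matrix, and the difference was -1.21 ± 0.16 (adjusted p = 1.48e-07). Cdt1 was at 9.05, 9.04, 11.1, 12.2 and 7.45 CPM in endothelial cells, a difference of -1.50 ± 0.34 (adjusted p = 0.0003). Of the Mcm genes 5 were lower, among them Mcm3 at 18.9, 23.4, 26.1, 23.6 and 20.5 CPM (-0.84 ± 0.23, adjusted p = 0.00243). Mcm6 did not pass, with endothelial values of 41.1, 26.2, 33.5, 30.1 and 31.1 CPM (-0.64 ± 0.36, adjusted p = 0.122). Pcna was lower by less in TMM-scaled CPM, at 131, 108, 120, 127 and 147 in endothelial cells (-0.47 ± 0.15, adjusted p = 0.00664).

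Tyms, which makes thymidylate for DNA synthesis, went the other way. It was at 37.7, 54.3, 53.1, 65.6 and 57.5 CPM in endothelial cells. In macrophages it was at 12.4, 25.6, 27.0, 33.9 and 9.41 (CD206hi), 28.7, 29.0, 44.1, 37.4 and 27.7 (CD206neg) and 11.2, 21.3, 34.4, 23 and 12.9 (CD206pos). Endothelial cells were higher in 5 of 5 tumours, by 1.12 ± 0.24 (adjusted p = 0.000218), although the ranges touch through the CD206neg library of tumour 8.

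Among the mitotic genes the 4 calls were divided. Cdc20, which starts anaphase, was at 25.7, 25.9, 42.2, 31.4 and 25.7 CPM in endothelial cells. In macrophages it was at 6.19, 12.4, 27.5, 26.2 and 12 (CD206hi), 18.3, 12.3, 31.2, 28.6 and 30.2 (CD206neg) and 4.29, 7.39, 19.5, 8.99 and 10.3 (CD206pos), so that endothelial cells were higher by 0.91 ± 0.34 (adjusted p = 0.0217). CD206neg and CD206hi each had libraries among the endothelial values of Cdc20, and CD206pos had none. Cenpf, a kinetochore protein, was at 19.5, 25.1, 36.2, 32.4 and 34.9 CPM in endothelial cells. In macrophages it was at 19.2, 18.2, 25.9, 18.6 and 9.63 (CD206hi), 20.8, 8.47, 39.8, 15.5 and 23.8 (CD206neg) and 6.23, 9.57, 22.4, 22.2 and 4.19 (CD206pos), a difference of 0.77 ± 0.31 (adjusted p = 0.0341). Mki67 was lower in endothelial cells, at 26.9, 21.7, 33.4, 32.3 and 41.3 CPM (-0.71 ± 0.25, adjusted p = 0.0173). Cenpa was lower as well, at 29.0, 30.1, 66.3, 47.4 and 37.1 CPM (-0.66 ± 0.28, adjusted p = 0.0417). The Cenpa and Cenpf calls were the least firm of the 4, lost under 14 and 7 of 42 alternative settings or left-out libraries, and the number of mitotic calls ran from 0 to 6 when single libraries or tumours were left out. Of the luminal epithelial markers 11 of 12 and of the pericyte markers 5 of 6 were higher in endothelial cells than in macrophages, and their part in the endothelial values was not tested.

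Endothelial cells were above both fibroblast populations in replication genes. Against CAF2, 11 of 16 S phase genes were higher, beside 23.7% of all genes, and 1 lower, beside 22.3%. Of the mitotic genes 11 of 23 were higher and none lower, and 20 were higher with tumour as a replicate block, beside 26.7% of all genes. The median log2 differences were 1.2 and 1.13, against 0.05 for all genes. Against CAF1, 6 S phase and 3 mitotic genes were higher and none lower, beside 15.9% of all genes higher and 18.8% lower, with medians of 0.80 and 0.69. With the block these counts became 8 and 9, beside 18.8%. The comparisons with CAF1, CAF2 and macrophages share the endothelial libraries, so their values stand side by side and are not independent. Whether the difference from CAF2 exceeded that from CAF1 is the comparison of CAF1 with CAF2.

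By role, all 4 clamp and nucleotide genes and 5 of 6 Mcm genes were higher in endothelial cells than in CAF2. Mcm3 differed by 1.52 ± 0.28 from CAF2 (adjusted p = 4.72e-05) and by 1.36 ± 0.28 from CAF1 (adjusted p = 0.000274). Pcna differed by 0.98 ± 0.18 (adjusted p = 4.13e-05) and by 0.78 ± 0.18 (adjusted p = 0.000772). These genes kept all endothelial libraries above all CAF1 and all CAF2 libraries. Such separation held for 7 S phase and 2 mitotic genes against CAF1, beside 12.5% of the matrix, and for 9 and 8 against CAF2, beside 16.6%. Tyms was at 21.9, 25.2, 31.0, 35.2 and 24.1 CPM in CAF1 and at 7.08, 17.2, 27.1, 20.3 and 21.3 in CAF2, below every endothelial library (adjusted p = 0.018 and 0.00027).

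E2f1 again stood against its list. It was at 11.2, 12.1, 13.3, 16.4 and 12 CPM in CAF1 and at 15.1, 19.5, 22.8, 23.6 and 17.5 in CAF2. Endothelial libraries lay below all CAF2 libraries, a separation in this direction shared by 17.8% of the matrix, and the difference was -0.78 ± 0.18 (adjusted p = 0.000881). Among the mitotic genes, Cdk1 was at 44.4, 48.8, 64.1, 76.2 and 62.8 CPM in endothelial cells, above all CAF2 libraries, by 1.78 ± 0.40 (adjusted p = 0.000552). Birc5 was at 31.1, 37.8, 67.3, 58.1 and 54.6 CPM in endothelial cells, higher by 1.28 ± 0.41 than in CAF1 (adjusted p = 0.0142) and by 1.26 ± 0.40 than in CAF2 (adjusted p = 0.0116). All endothelial values of Birc5 exceeded the CAF1 values, and only the tumour 8 library of CAF2 lay among them. The ubiquitin-conjugating enzyme gene Ube2c differed from CAF2 by 1.56 ± 0.41 (adjusted p = 0.00247) and Top2a by 1.34 ± 0.34 (adjusted p = 0.00166).

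Of the other replication genes 22 of 37 were higher in endothelial cells than in CAF2 and 11 of 37 higher than in CAF1, with none lower. The DNA polymerase delta subunit Pold3 was at 31.4 CPM in endothelial cells, 9.58 in CAF2 and 9.81 in CAF1, the chromatin remodeller Hells at 12.2, 3.40 and 4.17, and the primase-associated Pola2 at 28.9, 9.41 and 11.4. Of the other mitotic genes 17 of 40 and 6 of 40 were higher, among them the chromokinesin Kif22 (27.3 CPM against 5.85 and 10.8) and the passenger scaffold Incenp (16 against 5.49 and 6.50). The atypical E2F repressor E2f7 was also higher, at 12.4 CPM against 1.67 in CAF2 and 2.57 in CAF1 (adjusted p = 0.00175 and 0.0138). Of the luminal epithelial markers 12 of 12 were higher in endothelial cells than in CAF2. Against CAF1, 0 of 12 were called by edgeR or DESeq2 and 0 had an unadjusted p under 0.05. Of the 6 pericyte markers 4 were higher in endothelial cells than in CAF2, and 3 were lower than in CAF1. The part of either in these results was not tested. The mitotic count against CAF1 ran from 0 to 8 when libraries or tumours were left out, and was 8 without the CAF1 library of tumour 8.

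CAF1 and CAF2 differed little in these genes beyond their spread. Of the S phase genes 0 were higher in CAF1 and 1, E2f1, lower, beside 10.9% and 8.59% of all genes, and of the mitotic genes 0 of 23 were called. At an unadjusted p under 0.05 there were 4 S phase genes and 1 mitotic gene, and DESeq2 called 1 S phase gene higher, 1 lower and 0 mitotic genes. The point estimates leaned to CAF1, positive for 13 of 16 and 21 of 23 genes, with medians of 0.41 and 0.40 beside 0.01 for all genes. No gene had separated libraries, which 8.27% of the matrix showed with CAF1 above and 6.67% with CAF1 below. E2f1 was lower in CAF1 in 5 of 5 tumours by the values above (-0.58 ± 0.18, adjusted p = 0.0341), and this call was lost under 12 of 22 alternatives, with adjusted p from 0.0142 to 0.127. Cdt1 was higher in CAF1 in 5 of 5 tumours by value but did not pass (1.39 ± 0.61, adjusted p = 0.138), nor did Mcm7 (0.75 ± 0.27, adjusted p = 0.0725), which DESeq2 called. Of the other replication genes tested 1 of 36 was higher, Rrm1, the large subunit of ribonucleotide reductase (42.0 against 25.0 CPM, 0.76 ± 0.17, adjusted p = 0.00707), and 0 of 40 other mitotic genes were called by edgeR or DESeq2, with 1 at an unadjusted p under 0.05. In the same comparison 8 of 10 luminal epithelial and 4 of 5 myoepithelial markers tested were higher in CAF1, as given above for their sums, and so were 6 of 6 pericyte markers. Their part in the leaning was not tested.

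Regulators of the cycle did differ between the CAF gates. Of a list of 8 G1 regulators (Ccnd1, Ccnd2, Ccnd3, Cdk2, Cdk4, Cdk6, Cdc25a and Myc) 2 were higher in CAF1. Ccnd1, a D-type cyclin that senses growth signals, was at 56.3, 48.6, 138, 15.8 and 13.5 CPM in CAF1 and at 5.63, 5.58, 4.37, 2.0 and 4.72 in CAF2 (3.65 ± 0.60, adjusted p = 0.000976). Ccnd2, its relative, was at 211, 300, 620, 354 and 298 CPM in CAF1 and at 131, 133, 130, 120 and 96.3 in CAF2 (1.57 ± 0.26, adjusted p = 0.00109). For both cyclins every CAF1 library exceeded every CAF2 library, with tumour 8 the highest in CAF1. Cell cycle inhibitors differed as well, 3 of 7 higher and 1 lower in CAF1. Cdkn2b, which encodes the Cdk4 and Cdk6 inhibitor p15, was at 61.0, 46.2, 66.0, 75.6 and 82.2 CPM in CAF1 and at 7.65, 12.6, 17.3, 6.71 and 7.31 in CAF2 (2.70 ± 0.28, adjusted p = 4.81e-05). Cdkn1a, which encodes p21, was at 497, 887, 461, 486 and 678 CPM in CAF1 and at 204, 302, 149, 228 and 286 in CAF2 (1.38 ± 0.26, adjusted p = 0.00226). Cdkn2a was also called, at 1.09 to 2.13 CPM in CAF1 and 0 to 0.242 in CAF2, where all libraries were under the limit that a count of 0 allows. Cdkn1c, which encodes p57, was lower in CAF1, at 22.6, 40.4, 56.3, 58.3 and 64.3 CPM against 76.7, 98.7, 81.7, 100.2 and 103 (-0.92 ± 0.24, adjusted p = 0.0183). All CAF1 libraries lay below all CAF2 libraries for Cdkn1c. Pericyte markers differed between the CAF gates as well. All 6 were higher in CAF1, among them Rgs5 (591 against 2.45 CPM, adjusted p = 0.00016), Higd1b (107 against 0.291, adjusted p = 3.32e-05), Notch3 (52.1 against 1.32, adjusted p = 1.16e-05) and Cspg4 (81.2 against 8.13, adjusted p = 0.000378). Their sum was at 1326, 1483, 1562, 509 and 502 CPM in CAF1. The part of pericyte and epithelial RNA in the differences of the regulators was not tested.

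Across lineages the regulators differed from one another in their order. Cdkn1a was lowest in CAF2 and highest in macrophages, where the means were 1594 CPM (CD206pos), 1221 CPM (CD206neg) and 986 CPM (CD206hi), and fibroblasts were lower than macrophages (-1.73 ± 0.24, adjusted p = 2.33e-07). Cdkn1c and Cdkn2b were near the counting limit in macrophages, with means of 1.16 to 3.53 and 0.729 to 2.12 CPM, and higher in fibroblasts by 5.01 ± 0.29 (adjusted p = 1.11e-15) and 4.27 ± 0.28 (adjusted p = 4.52e-14). Myc, the growth regulator, had means of 464 CPM in CAF1, 732 in CAF2, 126 in endothelial cells and 62.1 to 84.2 in macrophages (3.06 ± 0.16 in fibroblasts against macrophages, adjusted p = 2.14e-16). Ccnd1 was highest in endothelial cells, at 227, 187, 258, 257 and 210 CPM, above all macrophage libraries (1.83 ± 0.30, adjusted p = 4.06e-06). Ccnd3, Cdk4 and Ccnd2 were also higher in fibroblasts than in macrophages and Ccnd1 and Cdk6 lower (Cdk6 -1.08 ± 0.19, adjusted p = 8.32e-06). With Myc, 4 of the 8 G1 regulators were thus higher and 2 lower. In endothelial cells against macrophages 5 were higher and 1 lower, and Cdk2, the partner of the E cyclins, was at 34.9 ± 5.08 CPM (SD, n = 5) in endothelial cells and at 18.6 to 22.3 in the other populations' means (adjusted p = 2.69e-05 against macrophages). Cdkn1b and Cdkn2c passed in no comparison.

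**Figure D4:**
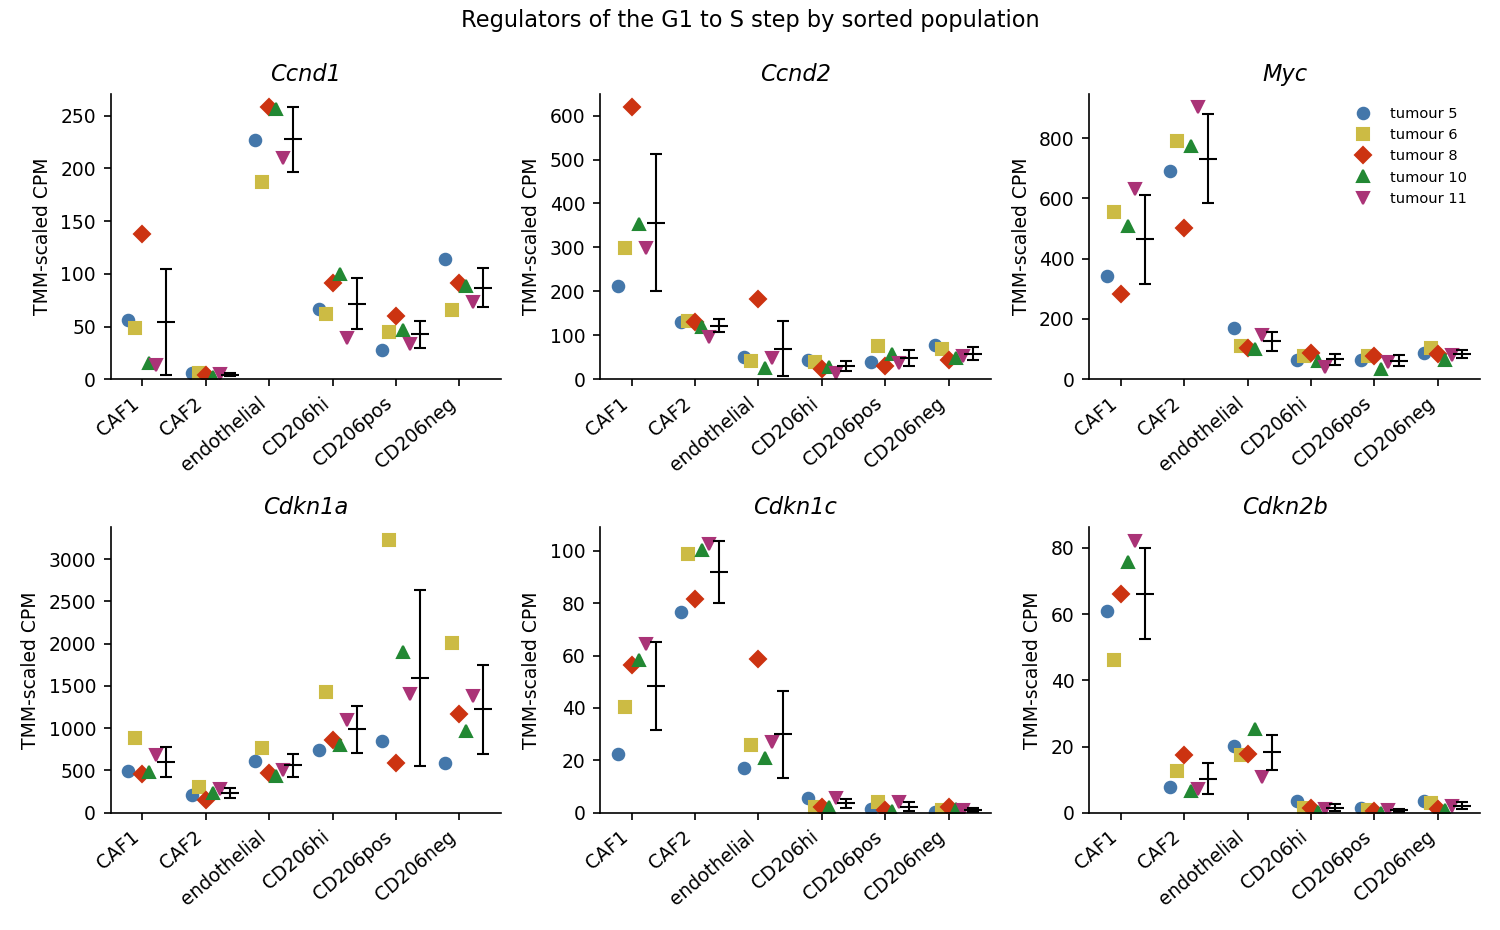
TMM-scaled CPM of Ccnd1, Ccnd2, Myc, Cdkn1a, Cdkn1c and Cdkn2b in the 6 populations, 1 panel per gene, with 1 symbol per library and the mean and SD over 5 tumours. CAF1 lies above CAF2 for Ccnd1, Ccnd2, Cdkn1a and Cdkn2b and below it for Cdkn1c, and Cdkn1c and Cdkn2b are near 0 in macrophages.

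Among the macrophages, few of these genes passed as lower in CD206pos than in CD206neg cells without pairing of tumours, and more did with it. Without pairing 3 of 16 S phase genes and 1 of 23 mitotic genes were lower in CD206pos and none higher, beside 5.85% and 8.85% of all genes. The mitotic share was thus no larger than that of all genes. With tumour as a replicate block 8 and 20 were lower, beside 12% of all genes. The medians were -0.62 and -0.90, beside 0.02 for all genes, and 0 of 23 mitotic estimates were positive. Libraries lay lower in 5 of 5 tumours for 7 S phase and 14 mitotic genes, but no gene had separated libraries, which 4.41% of the matrix showed with CD206pos below and 4.98% with CD206pos above. The mitotic genes that did not pass even with the block were Mki67, Cenpa and Cenpf.

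The 4 genes called without the block are named because the result turns on them. Mcm7 was at 65.5, 32.9, 55.3, 53.0 and 49.0 CPM in CD206neg and at 21.4, 12.2, 41.8, 20.7 and 20.0 in CD206pos (-1.13 ± 0.31, adjusted p = 0.0199). Rrm2, a subunit of ribonucleotide reductase, was at 39.3, 26.9, 50.8, 48.9 and 50.2 CPM in CD206neg and at 12.6, 13.9, 42.4, 17.1 and 15 in CD206pos (-1.08 ± 0.34, adjusted p = 0.0389). Aurka, the spindle pole kinase, was at 16.1, 12.6, 22.6, 22.6 and 18.2 CPM in CD206neg and at 3.78, 2.61, 14.9, 5.74 and 6.12 in CD206pos (-1.45 ± 0.40, adjusted p = 0.0207). In each of these genes the groups overlapped through a CD206pos library of tumour 8 that reached the CD206neg range. Mcm3, with the values given above, differed by -0.91 ± 0.30 (adjusted p = 0.0472). Without the CD206pos library of tumour 8 the counts became 6 and 18, and without the CD206neg libraries of tumours 6 and 8, whose column names disagree with their labels, 1 and 0. The Mcm3 call was lost under 15 of 28 alternatives and the Rrm2 call under 13 of 28. Other genes of the pathways gave 5 of 37 and 6 of 40 lower, none higher, among them the repair and replication protein subunit Rpa2 (9.58 against 22.1 CPM, adjusted p = 0.00413), the histone chaperone Asf1b (14.0 against 31.9, adjusted p = 0.0295), the cytokinesis regulator Racgap1 (15.8 against 39.7, adjusted p = 0.00405) and the kinetochore subunit Ndc80 (5.17 against 12.2, adjusted p = 0.0222). Ccnd1 was lower in CD206pos too (-1.02 ± 0.26, adjusted p = 0.0136) and Ccnd3 higher (0.74 ± 0.22, adjusted p = 0.0329). None of the 8 luminal epithelial markers tested was called here by edgeR or DESeq2, and 0 had an unadjusted p under 0.05, while 3 were lower in CD206pos with the block. Their part in the result was not tested.

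By summed level CD206hi cells lay between the other macrophages. Against CD206neg, edgeR called 0 of 16 and 0 of 23 genes, beside 10% of all genes, with medians of -0.33 and -0.33. At an unadjusted p under 0.05 there were 1 and 0 genes, and DESeq2 called 0. With tumour as a replicate block 4 S phase genes (Mcm3, Mcm7, Rrm2 and Tyms, adjusted p = 0.0492, 0.0263, 0.0364 and 0.0224) and 1 mitotic gene (Cenpa, adjusted p = 0.0431) were lower in CD206hi, beside 7.32% of all genes. Against CD206pos, edgeR and DESeq2 called 0 of 16 and 0 of 23 genes, beside 0.19% of all genes by edgeR, and 1 and 4 genes had an unadjusted p under 0.05. The estimates were positive for 13 of 16 and 22 of 23 genes, with medians of 0.42 and 0.50. No gene had separated libraries in either comparison, which 3.54% and 4.65% of the matrix showed with CD206hi below and above CD206neg, and 0.574% and 0.368% with CD206hi below and above CD206pos. Ccnd3 was higher in CD206hi than in CD206neg (0.85 ± 0.22, adjusted p = 0.0191). The 3 macrophage comparisons share libraries pairwise.

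Most mitotic genes varied between tumours in the 30 libraries together. In a model with population and tumour, the tumour term passed for 19 of 23 mitotic genes and 8 of 16 S phase genes, beside 22% of all genes. Mki67, Ccna2, Plk1 and Ube2c were the mitotic genes that did not pass. By role, the term passed for 6 of 6 kinesin and spindle genes, 4 of 5 centromere and chromosome genes, 3 of 4 in each of the other mitotic roles, 4 of 6 Mcm genes and 0 of 3 G1/S drivers. Of other mitotic genes 20 of 40 passed and of other replication genes 9 of 37.

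Tumour 8 was the high one. Its deviation from the mean of the 5 tumours was the highest for 23 of 23 mitotic and 13 of 16 S phase genes, while it was the highest for 21.6% of all genes. The median deviation in tumour 8 was 0.80 for mitotic genes, from 0.38 to 1.32, and 0.42 for S phase genes, beside 0.02 for all genes. Tumour 6 was the lowest for 14 mitotic and 10 S phase genes, with medians of -0.49 and -0.44, while it was the lowest for 22.7% of all genes. Tumour 8 had the highest mitotic sum in 6 of 6 populations (5 of 6 in plain CPM) and the highest S phase sum in 5 of 6 (3 of 6 in plain CPM).

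Kif2c, a kinesin that removes microtubule ends at centromeres, had the smallest adjusted p of the tumour term among the 39 genes (0.000372). It was at 5.30, 4.04, 10.9, 6.26 and 2.83 CPM in CAF1, 2.25, 1.09, 8.90, 5.71 and 4.35 in CAF2 and 6.96, 4.13, 9.73, 4.90 and 6.18 in endothelial cells. In macrophages Kif2c was at 4.80, 3.09, 15.1, 12 and 7.22 (CD206hi), 8.19, 5.81, 13.7, 10.9 and 11.2 (CD206neg) and 2.15, 2.17, 16, 5.49 and 3.86 (CD206pos). The tumour 8 library was the highest of all 6 populations, and tumour 6 was the lowest in 4 of them. Kif20a, a kinesin of cytokinesis, had the largest deviation in tumour 8, 1.32 (adjusted p = 0.00147). Kif20a was at 3.81, 4.37, 11.8, 4.29 and 4.07 CPM in CAF1, 5.96, 4.48, 12.8, 5.64 and 4.26 in CAF2 and 7.35, 1.87, 11.7, 3.32 and 5.08 in endothelial cells. In macrophages Kif20a was at 8.81, 1.18, 11.8, 10.1 and 4.59 (CD206hi), 7.65, 3.87, 10.6, 7.39 and 6.0 (CD206neg) and 2.15, 0.652, 13.5, 0.499 and 2.25 (CD206pos). The Kif20a value of 0.652 in the CD206pos library of tumour 6 stands at the limit of 3 counts. Again tumour 8 was the highest library of every population.

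Without tumour 8 the term passed for 3 S phase and 2 mitotic genes (Birc5 and Kif2c), beside 17% of all genes, and without tumour 6 for 4 and 11, beside 13.8%. In the 15 macrophage libraries alone it passed for 8 and 15 genes, beside 17.8%. In the 15 CAF and endothelial libraries alone it passed for 0 and 0, beside 0.201%, although tumour 8 had the highest mitotic sum in each of these populations, and whether lineages differed in the tumour effect was not tested. Without the CD206neg libraries of tumours 6 and 8 it passed for 12 mitotic genes. The luminal epithelial sum was highest in tumour 6 in 6 of 6 populations (5 of 6 in plain CPM), and the part of epithelial RNA in the tumour differences was not tested. Sequencing depth was the greatest in tumour 8, with a median of 10242284.5 counts per library, and the lowest in tumour 6, with 7780745.5, and its part was not tested. The CAF1 library of tumour 8 also held 105 CPM of the B cell gene Cd79b, against no more than 3.74 in the other CAF1 libraries, and its part was not tested either. Of the 7 CDK inhibitors 2 passed the tumour term, in opposite directions. Cdkn1a was highest in tumour 6 in 6 of 6 populations with a deviation of 0.69 (adjusted p = 0.00329 for the tumour term). Cdkn2c had its highest deviation, 0.43, in tumour 8 (adjusted p = 0.0199 for the tumour term).

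**Figure D5:**
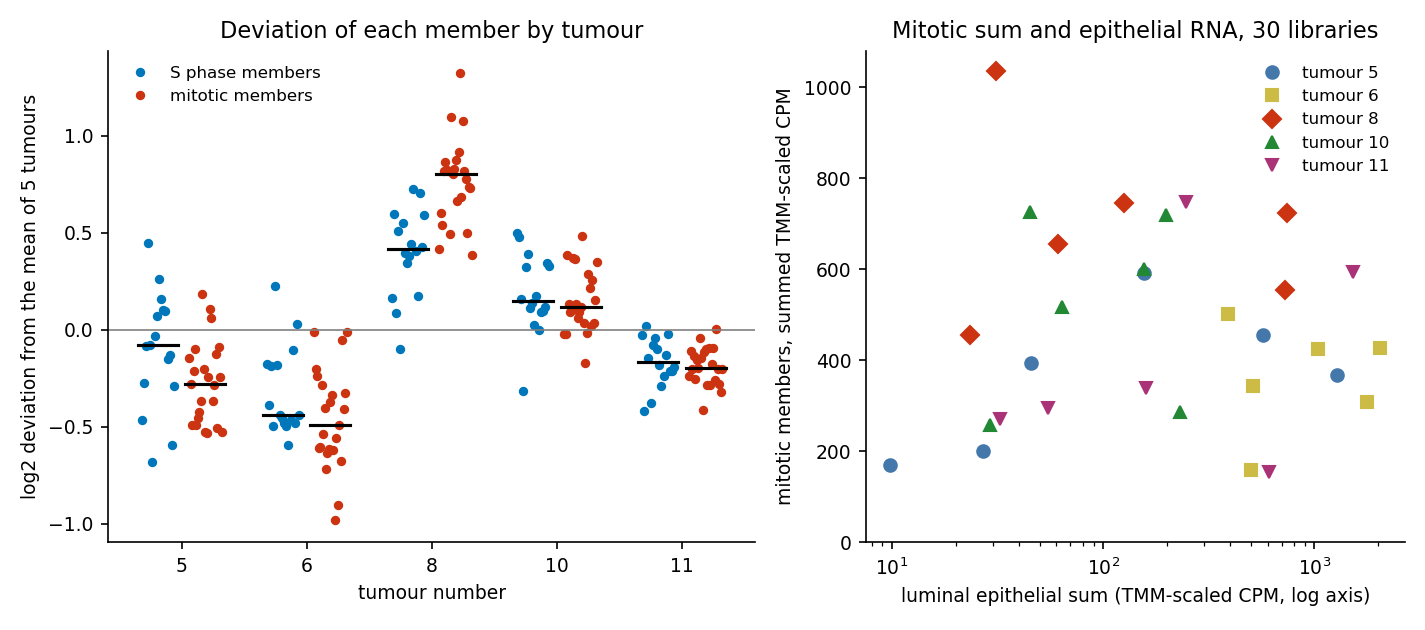
Left, deviation of each gene in each tumour from its mean over tumours (log2, vertical axis), from the model with population and tumour, with bars at the medians of the 16 S phase and 23 mitotic genes. Right, summed mitotic CPM against summed luminal epithelial CPM (log axis) in the 30 libraries. Tumour 8 has the highest medians, 0.42 and 0.80, and the library with the highest mitotic sum, 1036 CPM, has a luminal epithelial sum of 31.0 CPM. The part of epithelial RNA in the mitotic sums was not tested.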

How the data were processed

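RNA of 6 sorted populations from each of 5 tumours was sequenced, with all libraries pooled over 3 lanes per the labels. The submitters' processing notes name Trimmomatic 0.36, HISAT2 2.0.4, SAMtools 1.3.1, DESeq2 1.26 and mm10. It is not given in the sources used here how reads were counted, with or without strand. The deposited counts are whole reads, 1 row per Entrez identifier. The normalised table of the authors holds a signal that equals the deposited counts over a single size factor for each library, which was checked for all genes. The matrix holds 14118 genes with at least 72 counts each over all libraries. Symbols were matched for 14104, and the 14 others hold 0.0107% of counts. All 30 columns of each table were mapped by name to labelled samples.

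From the counts, edgeR 4.0.16 (R 4.3.3) with filterByExpr, TMM scaling and the quasi-likelihood F test gave log2 differences, SE and Benjamini-Hochberg adjusted p over all genes tested, called under 0.05. CAF1 and CAF2 were fitted alone (10 libraries, 12149 genes), the macrophages alone (15 libraries, 11052 genes), and lineages in all 30 libraries (13610 genes). The tumour term is an F test of 4 tumour coefficients beside population. Libraries with the same tumour number share an animal and are therefore paired. Their deviations from group means correlated at 0.0637 to 0.411 among CAF, 0.124 to 0.669 among macrophages and 0.0285 to 0.624 over all libraries. Other settings were the tumour block, DESeq2 1.42.0, limma 3.58.1 on log2 of the deposited normalised values + 1, relative log expression scaling, other count filters, and leaving out libraries or tumours. Plain CPM was used for levels and sums alone, without a fit. The edgeR, block, DESeq2 and limma fits were first run on simulated counts for some of the comparisons. These were CAF1 against CAF2, CD206pos against CD206neg, endothelial cells against CAF2 and fibroblasts against macrophages. The tumour term was simulated too, for edgeR, DESeq2 and limma. The other comparisons were not simulated, and the simulated population differences held no tumour effect.

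The genes and lists were chosen with earlier results of these data known. All 39 genes, the 8 G1 regulators and the CDK inhibitors may be named. Of other lists up to 3 per direction were named, with the largest change among called genes whose higher group averaged 10 CPM or more and that went the same direction in 5 of 5 tumours. All library values are given for the 3 genes of each list with the most RNA and for those called against most of their list. A few more, on which a result turns, were added after their values were seen. Without the block the fits between populations hold no tumour term, so libraries of the same tumour count as independent in their p-values. Those p-values cover the spread between libraries of these 5 mice. Promoter windows are RefSeq's on GRCm38.p6.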

Additional observations from a re-analysis of the deposited data

Results flagged for a closer look

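Of 54 groups of 5 libraries examined, 4 held a library whose gap to its nearest neighbour exceeded 0.71 of the group's range, and chance gives about 1 in 20 such groups. Tumour 6 was the low library for the S phase sum in CD206neg (548 CPM, next 743), from a library whose column name and label disagree. Tumour 8 was the high library in the other 3 groups: the S phase sum in CD206pos (643 CPM, next 440), Mcm6 in CD206pos (75.8 CPM, next 26.4) and Cenpa in CAF2 (58.7 CPM, next 27.7).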

How the results depend on the processing

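None of the 77 called log2 differences of the 39 genes between populations changed sign under any alternative fit. All of these fits scaled the libraries, and none was made in plain CPM, so the signs were not checked there. Plain CPM turned the order of endothelial cells and CD206neg for both sums. With tumour as a replicate block, calls rose to 4 S phase and 1 mitotic gene for CD206hi against CD206neg, 8 and 20 for CD206pos against CD206neg, and 9 and 20 mitotic genes for endothelial cells against CAF1 and CAF2. Under the block the CD206hi against CD206neg calls over all genes went from 1110 to 1791, those for CD206hi against CD206pos from 21 to 97 and those for CD206pos against CD206neg from 1625 to 2800. DESeq2 gave 2 S phase genes for CAF1 against CAF2, 6 and 6 for CD206pos against CD206neg, and 82 genes in all for CD206hi against CD206pos. Limma gave 5 and 6 for CD206pos against CD206neg, and 1 fit of all 30 libraries gave 2 S phase genes for CAF1 against CAF2, 6 for CD206pos against CD206neg and 36 genes in all for CD206hi against CD206pos. Without the CD206neg libraries of tumours 6 and 8, CD206pos against CD206neg gave 1 and 0, with 930 genes in all, CD206hi against CD206neg 545 genes in all, and the tumour term 12 mitotic genes. The tumour term over all genes called 1972 in macrophages and 26 in CAF and endothelial libraries, where 0 and 0 listed genes passed. In plain CPM the S phase sums were 605 in endothelial cells and 603 in CD206neg, and the mitotic sums 823 and 585. The cause of these shifts was not tested.

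Leaving out libraries or tumours, S phase calls ran from 0 to 1 for CAF1 against CAF2, 0 to 6 for CD206pos against CD206neg, 2 to 7 and 11 to 12 for endothelial cells against CAF1 and CAF2, 5 to 10 and 11 to 13 for endothelial cells and fibroblasts against macrophages, and 3 to 9 for the tumour term. Mitotic calls ran from 0 to 2, 0 to 18, 0 to 8, 6 to 17, 0 to 6, 11 to 17 and 2 to 19 in the same order. CD206hi gave 0 in every such fit. S phase sums ran over 236 to 272 CPM (CAF1), 206 to 231 (CAF2), 509 to 610 (CD206hi), 705 to 773 (CD206neg), 404 to 473 (CD206pos) and 406 to 428 (endothelial), mitotic sums over 280 to 380, 215 to 289, 490 to 592, 621 to 773, 340 to 453 and 520 to 594. Counts of 3 or fewer, at most 0.477 in plain CPM, cannot be told from 0. After TMM scaling the same counts can lie above that value.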
